A study of Mus musculus with 8 samples.

Results

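Genes of the mitotic spindle, the kinetochore and the spindle checkpoint were followed in mouse bone marrow cells sorted as haematopoietic stem cells, with and without Nup214, which encodes a pore protein facing the cytoplasm. The set held 34 genes, chosen by symbol among mitotic cyclins, kinases, kinesins, kinetochore and checkpoint genes and chromosome proteins, of 52097 genes in the deposited expression table. The KO libraries (n = 3) came from Nup214fl/fl,Mx1-Cre mice. In these mice Cre recombinase is driven by the interferon-inducible Mx1 promoter, which is active in many interferon-responsive cells and not in stem cells alone. The FL libraries (n = 5) came from Nup214fl/fl mice, which carry the same loxP-flanked alleles and no Cre. Both groups had received pIpC, a double-stranded RNA analogue used to raise interferon, and cells were sorted by flow cytometry 3 days later as CD48-CD150+LSK, where LSK stands for cells without lineage markers that carry Sca-1 and Kit. Only the KO mice carried Cre, so effects of Cre itself and of Nup214 loss cannot be told apart. The labels give neither age nor sex, and nothing in them ties a library to a mouse of its own. The p-values therefore rest on the spread between libraries, some of which may be technical.

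Entry into mitosis is driven by the kinase Cdk1 bound to cyclins A and B, with help from the Aurora and Polo-like kinases. Kinesins and microtubule-binding proteins then build the spindle, kinetochores hold the chromosomes on it, and the spindle checkpoint keeps the anaphase-promoting complex inactive until every chromosome is attached. Most of these transcripts are made late in the cell cycle, and haematopoietic stem cells are known for being mostly quiescent. Bulk RNA of such cells would carry these transcripts mainly from the part that cycles. Which cells carried them in these libraries was not tested. In bulk RNA, fewer cells of a type and less RNA per cell cannot be told apart.

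Values were FPKM (fragments mapped to a gene, divided by transcript length in kilobases and by the library's mapped total in units of 1000000), so levels can be compared between genes per length. The estimated depth was 16.3 to 22.7 in KO libraries and 20.6 to 44.7 in FL libraries, in units of 1000000 fragments. Nup214 itself had 9.66 to 18.2 FPKM in KO libraries, against 34.2 to 65.2 FPKM in FL libraries, and fell by 1.66 ± 0.25 (SE) on the log2(FPKM + 1) scale (limma, adjusted p = 0.000289); transcript outside the deleted part is counted too. Mitochondrial genes and their nuclear copies took 51.4% to 57.5% of all FPKM in KO libraries and 6.99% to 8.90% in FL libraries, and the median log2 fold change over the 15121 genes tested was -0.81. Rescaling each library by the median ratio of its genes moved that median to -0.03. The KO libraries went against their cell type label: all 10 stem cell markers fell, with a summed level of 15.7 to 89.5 FPKM in KO libraries, against 773 to 1103 FPKM in FL libraries. Of the markers of other cells, 12 of 13 macrophage genes rose (1988 to 8130 summed FPKM in KO, 455 to 610.1 in FL), as did 15 of 15 T and NK cell genes (4574 to 7008 in KO, 749 to 2372 in FL) and 8 of 11 stromal and endothelial genes tested (348 to 809 in KO, 77.1 to 93.0 in FL, all 12 summed), with 2 falling. Of 8 erythroid genes tested, 2 rose and 2 fell (117 to 368 FPKM in KO, 420 to 649 in FL for the 10 listed), and of 12 neutrophil and monocyte genes 1 rose and 1 fell (1769 to 7111 FPKM in KO, 774 to 3509 in FL). No stem cell, macrophage, T and NK cell or stromal marker was listed at 0 in any library, while the erythroid gene Slc4a1 and the neutrophil gene Ly6g were listed at 0 in at least 1. The part that these other cells took in the values of the mitotic genes was not tested.

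Each of the 9 role groups of mitotic genes held genes that fell in KO libraries. Of the 34 genes, 31 fell (limma, adjusted p under 0.05 over all 15121 genes tested), where 59.5% of all genes tested fell, and 0 rose, where 8.91% of all genes rose. At an unadjusted p under 0.05, 0 of the 34 were higher as well. The 3 that did not pass were Plk1, Nek2 and Ube2c. All 34 had passed the filter on low values (at least 1 FPKM in at least 3 libraries), and all 34 had an FL mean of at least 1 FPKM. The mean over the KO libraries was below 50% of the mean over the FL libraries in 33 of the 34, Nek2 being the exception. The same count was not made over all genes, whose median log2 fold change was itself -0.81, so it is not particular to this set.

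The fold changes of the 34 genes, on the log2(FPKM + 1) scale, ran from -1.90 for Cdc20 to -0.84 for Nek2, with a median of -1.37. Relative to the median of all genes tested, the median of the 34 was -0.56, and all 34 genes lay below the median of all genes. The background depended on level, and the median FL mean was 16.97 FPKM over the 34 genes and 10.5 FPKM over all genes. Of 10131 genes with at least 5 FPKM in at least 3 libraries, 74.6% fell, with a median of -1.01. Of the 32 mitotic genes among them 29 fell (90.6%), with a median of -1.37. In 22 of the 34 genes every KO library was below every FL library, as in 54.5% of all genes tested, and in 0 of the 34 was every KO library above, as in 7.89% of all genes.

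Most of these calls depended on how the libraries were scaled. After median-ratio rescaling, 3 of the 34 genes fell, where 17.1% of all genes fell and 18.7% rose, and their median fold change was -0.56 against -0.03 over all genes. The 3 were Kif2c (-0.88, adjusted p = 0.0356), Kif23 (-0.66, adjusted p = 0.0165) and Ect2 (-1.004, adjusted p = 0.0329), all by limma. Quantile normalization gave these 3 with Aurka and Tpx2, where 20.4% of all genes fell and 16.7% rose. Scaling to the non-mitochondrial total added Top2a to those 5, where 22.6% fell and 15.3% rose. Kif2c, Kif23 and Ect2 fell under all 4 scalings, and so did 2572 of the 15084 genes tested in all of them. The fold change after rescaling stayed negative in 33 of the 34, the exception being Ube2c at 0.05, which was also above 0 after quantile normalization (0.06).

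**Figure D1:**
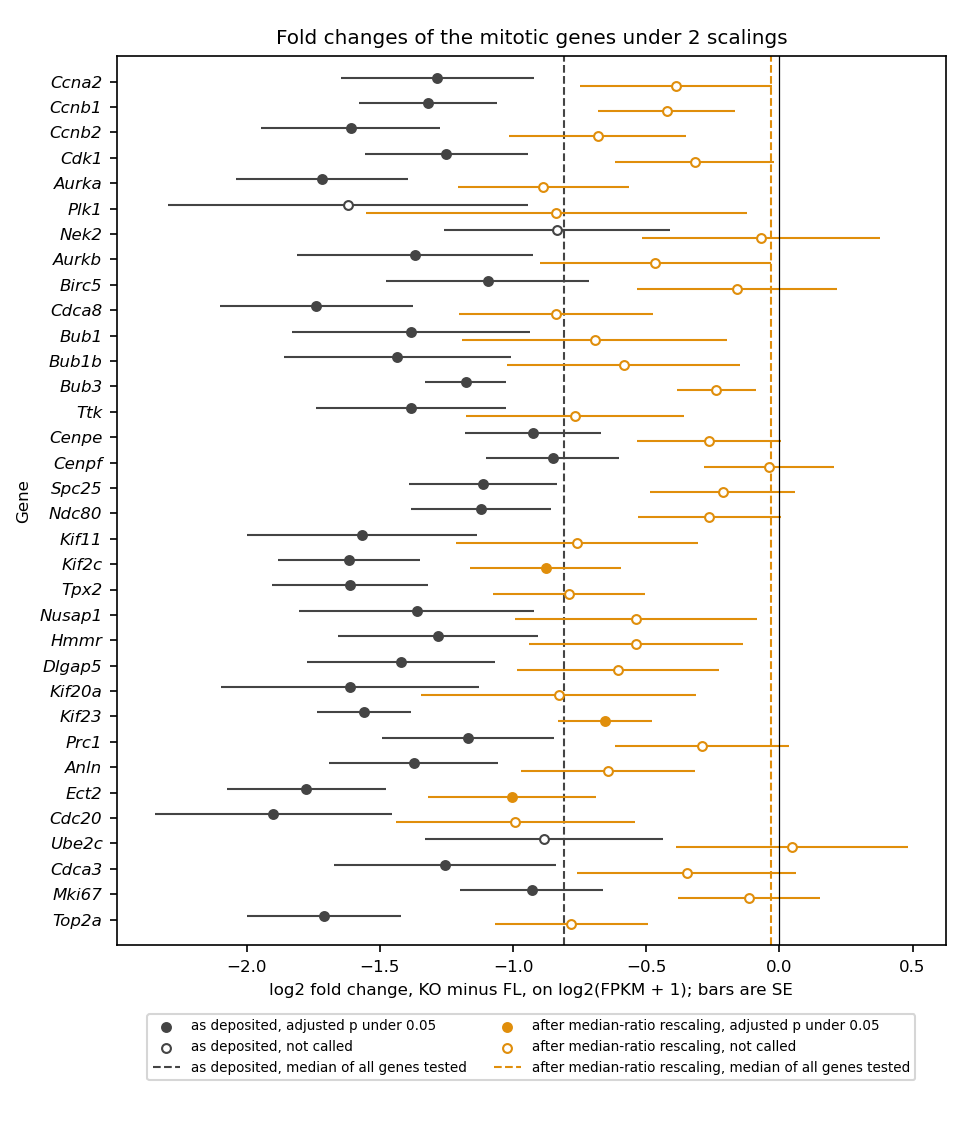
Log2 fold change (KO minus FL, on the log2(FPKM + 1) scale) of each of the 34 mitotic genes, as deposited (dark) and after median-ratio rescaling (orange). Points are limma estimates, bars are SE, filled points passed an adjusted p under 0.05, and dashed lines mark the median of all genes tested, -0.81 as deposited and -0.03 after rescaling. As deposited 31 points are filled, and after rescaling those of Kif2c, Kif23 and Ect2 are, with Ube2c alone to the right of 0 at 0.05.

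Most promoters of these genes hold letters that are typical of late cell cycle genes. The genes were chosen as mitotic genes, so the shares below are a description and no independent result. Late cell cycle promoters are known for paired boxes that bind the factor NF-Y, spelled CCAAT, and for a CHR element (cell cycle genes homology region) close to the start site, here searched as TTTGAA or TTCGAA. Both strands were searched, in windows from 250 bases before to 50 bases after the annotated start, for the 29 of 34 genes with a RefSeq window on GRCm38.p6; TTCGAA reads the same on both strands. At least 1 CCAAT was found in 24 of the 29 genes (82.8%), against 41.1% of the 27025 genes with a window. At least 2 were found in 18 (62.1%), against 13.3%. A CHR-type match lay in the window of 24 genes (82.8%), against 21.7%, and between 50 bases before the start and the end of the window in 22 genes (75.9%), against 6.12%. Both at least 2 CCAAT and a CHR-type match in that stretch were found in 15 of the 29 (51.7%), against 0.836% of all genes. Birc5 and Nusap1 held neither kind of match. In Ube2c some CCAAT matches overlap each other.

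Stretches of 5 promoters show how the letters are arranged, each from 230 bases before the start to 19 after it, 5′ to 3′ on the gene's own strand, which is the minus strand in all 5. They were chosen for a kinase with a cyclin, for the largest fall, for a gene that also fell after rescaling, and for the gene of the 5 with the most matches. Capitals mark matches, where ATTGG and TTCAAA are CCAAT and TTTGAA on the opposite strand.
Cdk1, chr10:69352893-69353142: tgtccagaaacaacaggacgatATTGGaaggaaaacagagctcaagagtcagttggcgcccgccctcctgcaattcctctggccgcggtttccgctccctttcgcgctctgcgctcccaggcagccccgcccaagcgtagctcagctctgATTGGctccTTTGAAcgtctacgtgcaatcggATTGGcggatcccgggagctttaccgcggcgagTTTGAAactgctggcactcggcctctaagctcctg
Ccnb1, chr13:100786467-100786716: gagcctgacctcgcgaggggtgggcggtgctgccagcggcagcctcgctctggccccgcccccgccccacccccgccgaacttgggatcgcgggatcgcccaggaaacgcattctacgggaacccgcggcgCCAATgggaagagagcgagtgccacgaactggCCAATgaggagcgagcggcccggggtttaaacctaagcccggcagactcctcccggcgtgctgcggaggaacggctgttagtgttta
Cdc20, chr4:118437324-118437573: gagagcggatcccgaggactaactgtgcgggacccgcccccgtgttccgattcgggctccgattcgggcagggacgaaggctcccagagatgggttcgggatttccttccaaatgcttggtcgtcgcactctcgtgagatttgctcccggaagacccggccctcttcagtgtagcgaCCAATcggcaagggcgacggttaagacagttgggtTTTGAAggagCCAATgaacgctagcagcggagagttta
Kif23, chr9:61946780-61947029: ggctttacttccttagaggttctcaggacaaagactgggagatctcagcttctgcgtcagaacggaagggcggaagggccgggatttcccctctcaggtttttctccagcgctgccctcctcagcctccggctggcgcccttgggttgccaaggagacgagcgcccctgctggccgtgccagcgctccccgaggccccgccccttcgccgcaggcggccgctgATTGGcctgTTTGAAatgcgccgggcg
Top2a, chr11:99024170-99024419: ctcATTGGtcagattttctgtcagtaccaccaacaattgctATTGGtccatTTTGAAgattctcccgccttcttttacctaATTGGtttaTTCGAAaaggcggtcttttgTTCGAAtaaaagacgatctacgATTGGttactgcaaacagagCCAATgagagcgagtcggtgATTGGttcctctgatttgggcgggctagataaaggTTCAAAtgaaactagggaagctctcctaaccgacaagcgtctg
In Cdk1 all 3 CCAAT matches lie upstream of the CHR-type match nearest the start, and in Cdc20 that match lies between 2 CCAAT matches, while in Kif23 a single pair sits across the start and in Top2a the matches are spread over the whole stretch. Ccnb1 holds 2 CCAAT matches and no CHR-type match, which says only that these letters are not in its window. A match is a description and no measurement of binding.

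**Figure D2:**
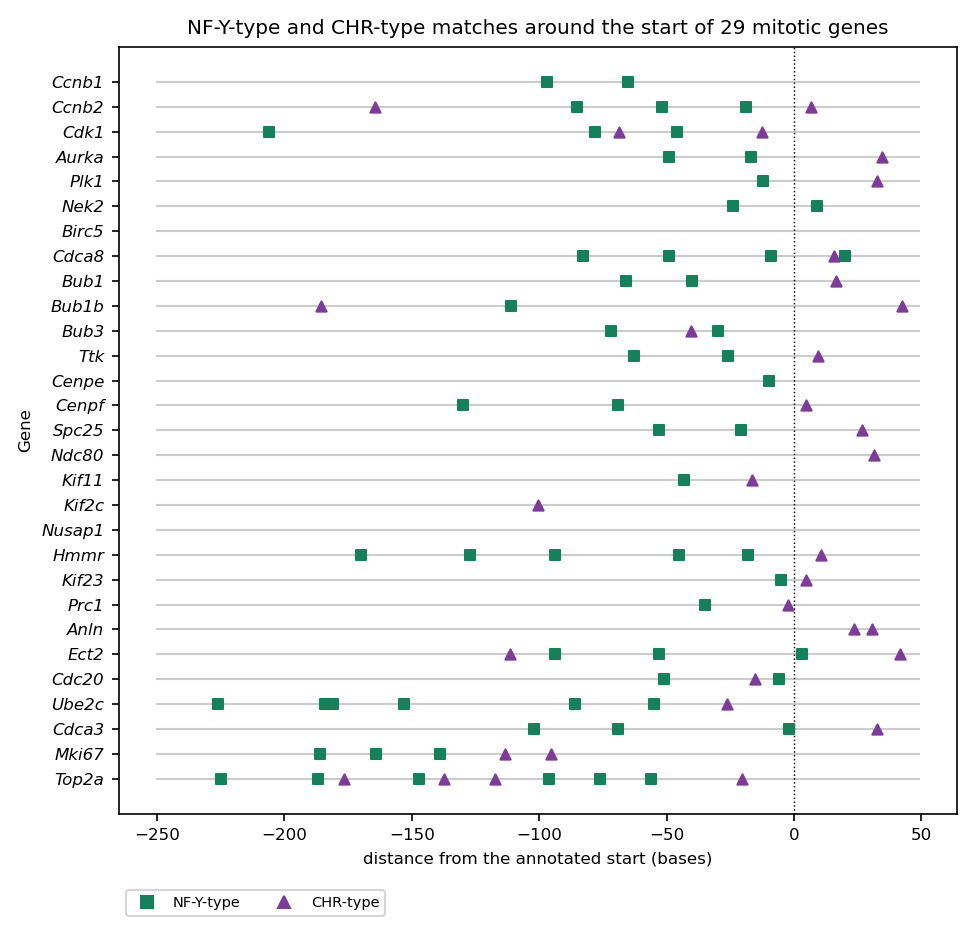
Positions of NF-Y-type (squares) and CHR-type (triangles) matches, in bases from the annotated start, in the promoter window of each of the 29 mitotic genes with a RefSeq window; grey lines span the window from 250 bases before to 50 after the start. Squares stand in 24 of the 29 windows and triangles in 24, and 22 windows have a triangle between 50 bases before the start and the window's end.

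Other genes with the same letters had fold changes close to those of all genes with a window. Of the 10169 other tested genes with a window, 65.9% fell as deposited, with a median fold change of -0.87. The 79 of them with at least 2 CCAAT and a CHR-type match near the start had 73.4% falling and a median of -0.93. After median-ratio rescaling 10.1% of those 79 fell, with a median of -0.17, against 18.7% and a median of -0.05 for all others with a window.

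All 4 genes of the Cdk1 and cyclin group fell, with a median fold change of -0.49 relative to that of all genes. Cdk1, the kinase that starts mitosis, had 22.9, 20.8 and 23.9 FPKM in KO replicates 1 to 3, against 34.8, 66.7, 46.7, 104 and 43.6 FPKM in FL replicates 1 to 5. Ccnb2, a B-type cyclin, had 26.8, 10.6 and 23.6 FPKM in KO replicates 1 to 3 and 38.9, 58.9, 62.5, 97.6 and 54.9 FPKM in FL replicates 1 to 5. In both genes the groups did not overlap, and FL replicate 4 was the highest library. Cdk1 fell by 1.25 ± 0.31 (SE; limma, adjusted p = 0.00491) and Ccnb2 by 1.61 ± 0.33 (adjusted p = 0.00205). The other B-type cyclin, Ccnb1, had 11.9, 8.05 and 9.22 FPKM in KO replicates and 18.4, 27.9, 24.3, 42.4 and 20.1 FPKM in FL replicates, again without overlap, and fell by 1.32 ± 0.26 (adjusted p = 0.00134). Ccna2, the cyclin of S phase and mitotic entry, had 15.8, 6.98 and 8.4 FPKM in KO replicates and 15.2, 26.1, 24.1, 50.1 and 21.3 FPKM in FL replicates. Its groups overlapped, since KO replicate 1 was above FL replicate 1, and its fall of 1.28 ± 0.36 (adjusted p = 0.0105) lost the call without KO replicate 2 (adjusted p = 0.0517).

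Among 3 kinases of the centrosome and spindle poles, 1 fell. Aurka, the Aurora kinase that works at the poles, had 4.63, 2.68 and 5.09 FPKM in KO replicates 1 to 3, against 9.15, 17.7, 16.8, 27.2 and 11.8 FPKM in FL replicates 1 to 5. The groups did not overlap, and Aurka fell by 1.72 ± 0.32 (SE; limma, adjusted p = 0.00105). Plk1, the Polo-like kinase needed from entry to cytokinesis, had 10.2, 0.53 and 8.18 FPKM in KO replicates and 8.46, 15.9, 16.3, 34.6 and 11.8 FPKM in FL replicates. KO replicate 2 stood far below the other two, KO replicate 3 was just under the lowest FL library and KO replicate 1 lay within the FL range. The fold change of -1.62 ± 0.68 did not pass (adjusted p = 0.0598). It passed without FL replicate 1 (0.0477), without KO replicate 1 (0.0355) and without KO replicate 3 (0.049), and without the robust step (0.0482), all by limma, and ran from -2.15 to -0.71 over the 8 fits that left out 1 library. Nek2, a centrosome kinase, had 8.09, 1.91 and 1.76 FPKM in KO replicates and 3.92, 5.86, 7.05, 11.6 and 5.75 FPKM in FL replicates. KO replicate 1 was above all but the highest FL library, while the other two were below all 5. Its fold change was -0.84 ± 0.42 (adjusted p = 0.105), and -1.40 without KO replicate 1 (adjusted p = 0.0053).

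The chromosomal passenger complex corrects faulty attachments at the centromere, and all 3 of its subunits in the set fell. Aurkb, its kinase, had 17.3, 6.28 and 12.2 FPKM in KO replicates 1 to 3, against 14.3, 31.5, 32.2, 63.6 and 26.3 FPKM in FL replicates 1 to 5. Birc5 (survivin) had 46.4, 18.5 and 28.8 FPKM in KO replicates 1 to 3 and 35.8, 72.1, 66.95, 115 and 51.9 FPKM in FL replicates 1 to 5. In both, KO replicate 1 was within the FL range and above FL replicate 1. Aurkb fell by 1.37 ± 0.44 (SE; limma, adjusted p = 0.0214), a call lost without KO replicate 2 (0.0961). Birc5 fell by 1.10 ± 0.38 (adjusted p = 0.0282), a call lost without FL replicate 2 (0.0521), FL replicate 3 (0.0503), KO replicate 2 (0.123) or KO replicate 3 (0.0702), and with no filter on low values (0.0587). Cdca8 (borealin) had 16.2, 5.85 and 10.1 FPKM in KO replicates and 23.97, 37.6, 40.2, 62.4 and 24.7 FPKM in FL replicates. Its groups did not overlap, and it fell by 1.74 ± 0.36 (adjusted p = 0.0021).

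All 4 spindle checkpoint genes fell, and they differed widely in their spread between libraries. Bub3, which brings the checkpoint kinases to the kinetochore, was the most abundant, with 37.7, 39.7 and 29.6 FPKM in KO replicates 1 to 3, against 69.9, 83.6, 81.6, 97.7 and 76.4 FPKM in FL replicates 1 to 5. The groups were far apart, and Bub3 fell by 1.18 ± 0.15 (SE; limma, adjusted p = 0.00012). Bub1b (BubR1), a part of the inhibitor of the anaphase-promoting complex, had 12.6, 3.38 and 3.6 FPKM in KO replicates and 11.4, 15.5, 14.4, 32.9 and 14.4 FPKM in FL replicates. Bub1, a kinetochore kinase, had 5.45, 0.36 and 1.99 FPKM in KO replicates and 4.11, 7.51, 6.99, 10.1 and 6.2 FPKM in FL replicates. In both genes KO replicate 1 was within the FL range and the other two were below it. Bub1b fell by 1.43 ± 0.43 (adjusted p = 0.0139), and the call was lost without KO replicate 2 (0.0675) or KO replicate 3 (0.0632). Bub1 fell by 1.38 ± 0.45 (adjusted p = 0.0194), lost likewise without KO replicate 2 (-0.82, adjusted p = 0.0722) or KO replicate 3 (0.0543). Ttk (Mps1), the kinase that starts checkpoint signalling, had 2.02, 0.16 and 2.28 FPKM in KO replicates and 3.28, 5.17, 4.94, 7.1 and 4.59 FPKM in FL replicates. No KO library reached the FL range, and Ttk fell by 1.38 ± 0.36 (adjusted p = 0.00618). Its value in KO replicate 2 rests on an estimated 10 fragments, the fewest of any value of the 34 genes.

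The 4 kinetochore genes fell without overlap between the groups, and of the 9 role groups their median lay closest to that of all genes, at -0.21 relative to it. Ndc80, which grips the microtubule, had 8.88, 3.88 and 5.71 FPKM in KO replicates 1 to 3, against 10.3, 14.4, 15.3, 19.1 and 11.97 FPKM in FL replicates 1 to 5. Spc25, a subunit of the same complex, had 13.5, 8.47 and 10.3 FPKM in KO replicates 1 to 3 and 14.1, 27.8, 25.7, 37 and 21.3 FPKM in FL replicates 1 to 5. In both, KO replicate 1 was the nearest to the FL range and lay under FL replicate 1. Ndc80 fell by 1.12 ± 0.26 (SE; limma, adjusted p = 0.00368) and Spc25 by 1.11 ± 0.28 (adjusted p = 0.0052). Cenpf, a large protein of the outer kinetochore, had 3.57, 3.26 and 5.41 FPKM in KO replicates and 5.59, 8.77, 8.08, 11.98 and 6.84 FPKM in FL replicates, and Cenpe, a kinetochore kinesin, had 1.85, 0.79 and 2.23 FPKM in KO replicates and 2.61, 4.24, 3.89, 4.89 and 3.86 FPKM in FL replicates. KO replicate 3 was the highest KO library in these 2 genes. Cenpf fell by 0.85 ± 0.25 (adjusted p = 0.0122) and Cenpe by 0.93 ± 0.26 (adjusted p = 0.00883).

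All 6 spindle motors and microtubule proteins fell, with a median of -0.69 relative to that of all genes. Kif11, the motor that pushes the poles apart, had 8.42, 1.39 and 3.99 FPKM in KO replicates 1 to 3, against 8.77, 12.5, 14.2, 23.9 and 10.9 FPKM in FL replicates 1 to 5. Tpx2, which activates Aurora A on the spindle, had 4.07, 3.15 and 4.16 FPKM in KO replicates 1 to 3 and 8.15, 13.4, 12.9, 24.97 and 12.97 FPKM in FL replicates 1 to 5. Kif2c (MCAK), a kinesin that takes microtubules apart, had 3.27, 1.43 and 1.61 FPKM in KO replicates and 7.5, 7.85, 7.86, 12.7 and 6.21 FPKM in FL replicates. None of these 3 genes overlapped between the groups, and the KO libraries were closest to each other in Tpx2. Kif11 fell by 1.57 ± 0.43 (SE; limma, adjusted p = 0.0093), Tpx2 by 1.61 ± 0.29 (adjusted p = 0.000839) and Kif2c by 1.62 ± 0.27 (adjusted p = 0.000492). Kif2c passed under all 4 scalings.

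Dlgap5 (HURP), which binds microtubules near the chromosomes, had 7.18, 1.5 and 5.39 FPKM in KO replicates 1 to 3, against 9.64, 12.3, 16.1, 14.6 and 11.3 FPKM in FL replicates 1 to 5. It was the only one of the 34 genes in which FL replicate 4 was not the highest FL library, and its groups did not overlap. Hmmr, a centrosome and spindle protein, had 4.7, 0.83 and 3.15 FPKM in KO replicates and 4.27, 8.14, 8.47, 10.6 and 7.58 FPKM in FL replicates, and Nusap1, which bundles microtubules, had 10.7, 2.62 and 2.56 FPKM in KO replicates and 6.77, 13.5, 14.4, 21.03 and 11.6 FPKM in FL replicates. In both, KO replicate 1 was above FL replicate 1, and the other two KO libraries were below the FL range. Dlgap5 fell by 1.42 ± 0.35 (SE; limma, adjusted p = 0.00506) and Hmmr by 1.28 ± 0.38 (adjusted p = 0.012). Nusap1 fell by 1.36 ± 0.44 (adjusted p = 0.0203), which lost the call without KO replicate 2 (0.0919) or KO replicate 3 (0.0902).

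The central spindle forms between the separating chromosomes and places the cleavage furrow, and all 5 of its genes fell, with a median of -0.75 relative to that of all genes. Kif23 (MKLP1), a motor of the centralspindlin complex, had 12.1, 8.64 and 9.75 FPKM in KO replicates 1 to 3, against 27.8, 30.5, 29.9, 42.5 and 29.1 FPKM in FL replicates 1 to 5. Its KO libraries were all below 50% of the lowest FL library. Kif23 fell by 1.56 ± 0.18 (SE; limma, adjusted p = 5.63e-05), the smallest adjusted p of the 34 genes, and passed under all 4 scalings. Ect2, which activates RhoA at the furrow, had 4.61, 2.24 and 1.4 FPKM in KO replicates and 8.14, 9.77, 11.2, 16.3 and 11.3 FPKM in FL replicates. The groups stood apart, Ect2 fell by 1.78 ± 0.30 (adjusted p = 0.00053), and it too passed under all 4 scalings.

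Prc1, which cross-links the overlapping microtubules of the central spindle, had 10.99, 7.87 and 4.86 FPKM in KO replicates 1 to 3, against 11.3, 22.7, 15.7, 30.5 and 16.1 FPKM in FL replicates 1 to 5. Anln (anillin), a scaffold of the furrow, had 2.39, 1.05 and 3.2 FPKM in KO replicates and 4.54, 8.54, 6.25, 11.4 and 5.78 FPKM in FL replicates. Neither overlapped between the groups, although KO replicate 1 came close to FL replicate 1 in Prc1. Prc1 fell by 1.17 ± 0.32 (SE; limma, adjusted p = 0.00894) and Anln by 1.37 ± 0.32 (adjusted p = 0.00343). Kif20a (MKLP2), which carries the passenger complex to the central spindle, had 10.6, 2.1 and 1.24 FPKM in KO replicates and 8.92, 12.01, 11.6, 19.5 and 10.97 FPKM in FL replicates. KO replicate 1 was within the FL range and the other two were far below it. Kif20a fell by 1.61 ± 0.48 (adjusted p = 0.0145), a call lost without KO replicate 2 (0.0663) or KO replicate 3 (0.0652).

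Of 3 genes that act in mitotic ubiquitin ligases, 2 fell. Cdc20, the activator that the checkpoint holds back, had 19.2, 4.85 and 24.1 FPKM in KO replicates 1 to 3, against 44.9, 48.5, 54.1, 81.6 and 41.9 FPKM in FL replicates 1 to 5. KO replicate 2 was far below the other two, all 3 were below the FL range, and Cdc20 fell by 1.90 ± 0.45 (SE; limma, adjusted p = 0.00447), the largest estimate of the 34. Ube2c, the conjugating enzyme of the anaphase-promoting complex, had 31.8, 15.96 and 26.03 FPKM in KO replicates and 25.5, 56.4, 46.8, 100.3 and 25.6 FPKM in FL replicates. KO replicates 1 and 3 lay within the FL range, which spanned the widest interval of the 3 genes, and the fold change of -0.88 ± 0.45 did not pass (adjusted p = 0.107); without FL replicate 1 it was -1.08 (0.0495). Cdca3 (Tome-1), an F-box-like protein of mitotic entry, had 20.3, 12.2 and 8.12 FPKM in KO replicates and 16.8, 34.2, 32.9, 66.8 and 24.9 FPKM in FL replicates. KO replicate 1 was above FL replicate 1, and the fall of 1.26 ± 0.42 (adjusted p = 0.0231) lost the call without KO replicate 2 (0.0707) or KO replicate 3 (0.0968).

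Both chromosome proteins fell. Top2a, the topoisomerase that untangles sister chromatids, had 25.7, 12.1 and 19.6 FPKM in KO replicates 1 to 3, against 39.2, 74.3, 68.4, 86.6 and 53.2 FPKM in FL replicates 1 to 5. Mki67, the proliferation antigen that coats mitotic chromosomes, had 4.99, 4.58 and 2.91 FPKM in KO replicates and 5.65, 8.6, 8.62, 13.98 and 8.19 FPKM in FL replicates. Neither gene overlapped between the groups, with the gap wider in Top2a. Top2a fell by 1.71 ± 0.29 (SE; limma, adjusted p = 0.000563) and Mki67 by 0.93 ± 0.27 (adjusted p = 0.011), and after median-ratio rescaling their fold changes were -0.78 (adjusted p = 0.06) and -0.11 (adjusted p = 0.773).

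**Figure D3:**
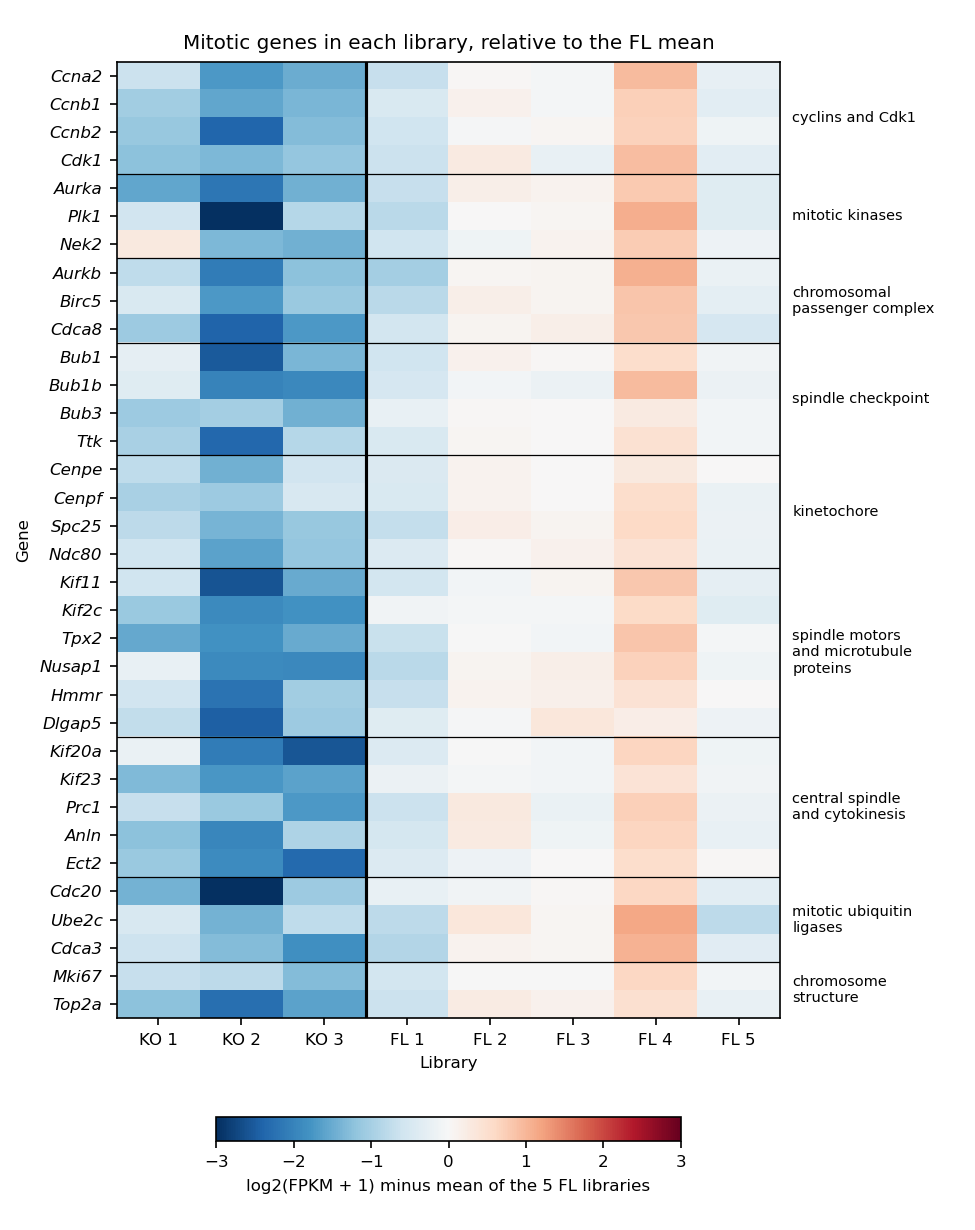
Level of each of the 34 mitotic genes (rows, grouped by role) in each library (columns), as log2(FPKM + 1) minus the mean of the 5 FL libraries; blue is below that mean and red above, and 2 values below -3 (Plk1 and Cdc20 in KO replicate 2) are drawn at the end of the scale. KO replicate 2 is the lowest KO library in 26 rows, KO replicate 1 the highest in 25, FL replicate 4 the highest FL library in 33 and FL replicate 1 the lowest in 32.

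The 34 genes moved together between libraries of the same group. FL replicate 4 was the highest FL library for 33 of them, against 28.5% of all genes tested, and FL replicate 1 the lowest for 32, against 33.2% of all genes; Kif2c and Cdc20 were lowest in FL replicate 5. In the KO group replicate 1 was the highest library for 25 of the 34, against 31.7% of all genes, and replicate 2 the lowest for 26, against 34.4%. KO replicate 2 was below all FL libraries in all 34 genes and KO replicate 3 in 33, with Ube2c as the exception. KO replicate 1 was below them in 22, and the other 12 genes were all of those whose groups overlapped. The median spread between KO libraries (SD of log2(FPKM + 1), n = 3) was 0.59 over the 34 genes and 0.38 over all genes, and between FL libraries (n = 5) it was 0.46 against 0.22. Without KO replicate 2, 23 of the 34 genes fell (67.6%), near the 60.3% of all genes tested in that fit. Without both KO replicate 2 and FL replicate 4, a choice made after the values were seen, 22 fell (64.7%), near the 61.1% of all genes, with a median fold change of -0.91, against -0.86 over all genes.

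Set against the FL mean, the median of the 34 genes was -0.76 in KO replicate 1, -1.91 in KO replicate 2 and -1.37 in KO replicate 3 on the log2(FPKM + 1) scale. The same median over all genes was -0.83, -0.81 and -0.79 in these libraries. Relative to the median of its own library, the median of the mitotic genes was 0.06 in KO replicate 1, -1.10 in KO replicate 2 and -0.59 in KO replicate 3. In FL replicates 1 to 5 the mitotic genes lay at -0.57, 0.07, 0.04, 0.66 and -0.19, while all genes lay between -0.04 and 0.03. On that relative scale KO replicate 1, at 0.06, was above FL replicates 1, 3 and 5, which stood at -0.53, 0.01 and -0.20, and below FL replicates 2 and 4, at 0.09 and 0.66.

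Summed over the 34 genes, KO replicates 1 to 3 held 447, 225 and 314 FPKM and FL replicates 1 to 5 held 562, 900.4, 857, 1407 and 705 FPKM, so that the groups did not overlap. The KO mean of the sum was 37.1% of the FL mean. Summed S phase genes, the replication and nucleotide synthesis genes of the preceding phase, were level between KO libraries at 439, 470.3 and 439 FPKM, against 976, 1290, 1288, 1662 and 1155 FPKM in FL replicates, with the same highest and lowest FL libraries. Their KO mean was 35.3% of the FL mean. Beside these sums, the macrophage markers summed to 1988, 8130 and 4290 FPKM in KO replicates 1 to 3, highest in the library with the lowest mitotic sum, and the T and NK cell markers to 7008, 4574 and 6064 FPKM, highest in the library with the highest mitotic sum. Their part in the differences between KO libraries was not tested.

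**Figure D4:**
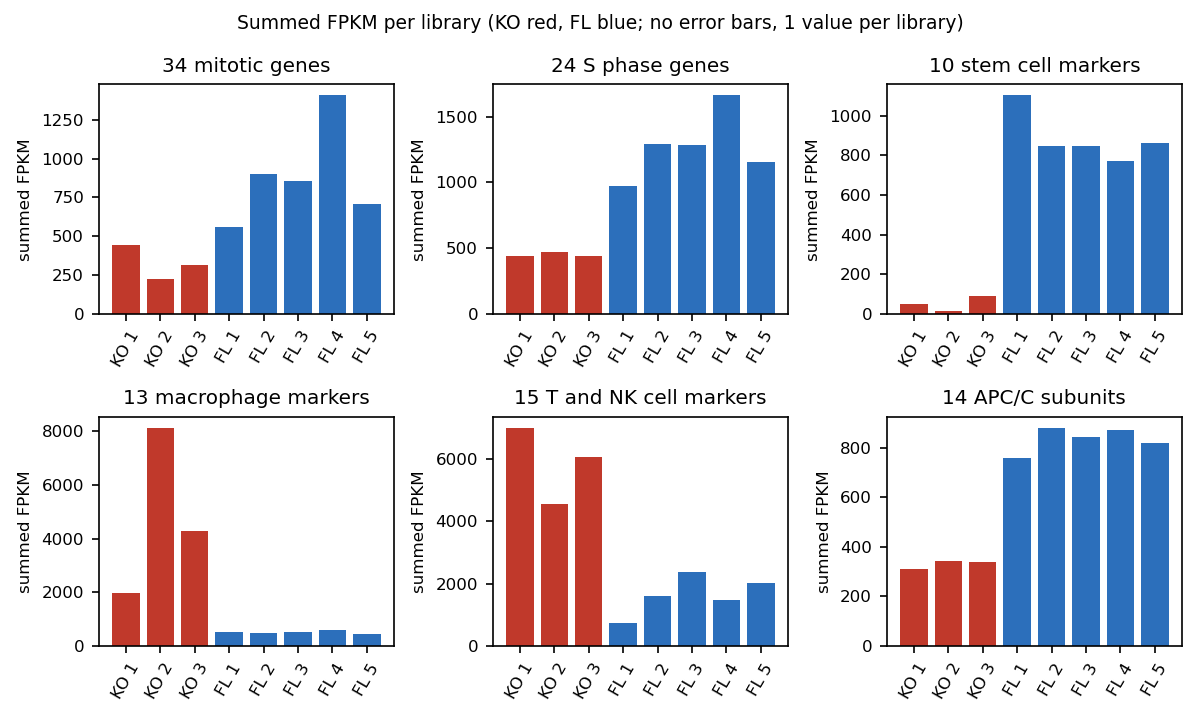
Summed FPKM of 6 gene lists in each library, KO in red and FL in blue, with 1 bar per library and no error bars; each panel has its own vertical axis from 0. Mitotic genes run from 225 to 447 FPKM in KO and from 562 to 1407 in FL, S phase genes from 439 to 470.3 in KO and from 976 to 1662 in FL, and anaphase-promoting complex (APC/C) subunits from 311 to 342 in KO and from 758 to 880.0 in FL, while the macrophage and T and NK cell markers are higher in every KO library than in any FL library.

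Other genes of the same machinery, in 6 lists of 110 genes, had 95 that fell (86.4%, against 59.5% of all genes), 1 that rose and 14 that did not pass, with a median of -1.09, or -0.29 relative to that of all genes. After median-ratio rescaling 22 fell, a share near the 17.1% of all genes, and 3 rose, with a median of -0.26. Of 33 other kinetochore and checkpoint genes 31 fell, with a median of -1.22. Cenpq, a protein of the inner kinetochore, averaged 6.18 ± 1.64 FPKM in KO libraries and 19.4 ± 1.55 in FL libraries (SD, n = 3 and 5), and Zwint, an outer kinetochore protein, 32.04 ± 3.16 and 66.03 ± 2.14 FPKM. They fell by 1.52 (limma, adjusted p = 5.5e-05) and 1.02 (adjusted p = 6.15e-05). The 2 that did not pass were Sgo2a, a guardian of centromeric cohesion, at -0.70, and the histone kinase Haspin at -0.27.

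Among 20 other kinesin, spindle and cytokinesis genes 16 fell, where 59.5% of all genes fell, with a median of -1.02. Numa1, which ties microtubules to the spindle poles, averaged 22.3 ± 2.64 FPKM in KO libraries and 86.6 ± 12.1 FPKM in FL libraries (SD, n = 3 and 5) and fell by 1.91 (limma, adjusted p = 1.02e-05). Ckap5, a microtubule polymerase, averaged 6.63 ± 0.941 FPKM in KO libraries and 15.5 ± 1.54 FPKM in FL libraries and fell by 1.11 (adjusted p = 0.000201). The 4 that did not pass were Kifc1 (0.05), a minus-end kinesin, Racgap1 (-0.24), the partner of Kif23 in centralspindlin, Aspm (-0.60), a spindle pole protein, and Fam83d (-0.77), a spindle protein. Racgap1 had 18.6, 22.8 and 24.9 FPKM in KO replicates 1 to 3, against 14.8, 21.9, 25.7, 56.04 and 25.2 FPKM in FL replicates 1 to 5, so that its groups overlapped while those of Kif23 did not.

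Of 23 regulators of mitotic entry and exit, 19 fell, 1 rose and 3 did not pass, with a median of -1.09. Of all genes tested 59.5% fell and 8.91% rose. Wee1, the kinase that restrains Cdk1, averaged 3.04 ± 1.03 FPKM in KO libraries and 17.1 ± 2.53 FPKM in FL libraries (SD, n = 3 and 5), and Cks1b, a small subunit of Cdk complexes, 36.7 ± 10.3 and 152 ± 41.4 FPKM. They fell by 2.19 (limma, adjusted p = 2.53e-05) and 2.02 (adjusted p = 0.000107), and both also fell after median-ratio rescaling. Cdc25b, the phosphatase that opposes Wee1, had 18.5, 10.04 and 28.5 FPKM in KO replicates 1 to 3, against 8.71, 8.06, 8.64, 11.3 and 7.83 FPKM in FL replicates 1 to 5. KO replicate 2 was below FL replicate 4 and the other two were above all FL libraries. Cdc25b rose by 0.91 ± 0.28 (SE; adjusted p = 0.0157), and by 0.58 without KO replicate 3, where the call was lost (adjusted p = 0.0661). The 3 that did not pass were Foxm1 (-0.07), a transcription factor of late cell cycle genes, Pttg1 (-0.18), securin, and Espl1 (-0.45), the separase that securin holds. Pttg1 had 44.6, 56.2 and 56.8 FPKM in KO replicates and 53.2, 61.1, 65.3, 52.1 and 65.8 FPKM in FL replicates, with overlap, and after median-ratio rescaling it rose by 0.77 (adjusted p = 0.00173).

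For the counts that follow, the share of all genes tested that fell was 59.5%. Condensin folds mitotic chromosomes, and 6 of its 8 genes fell, with a median of -0.91. Ncapd2 fell by 1.98 (limma, adjusted p = 0.000282) and Smc4 by 1.38 (adjusted p = 0.000359), while Ncapg2 (-0.23) and Ncaph (-0.61) did not pass. Cohesin holds sister chromatids together, and 11 of 12 genes of the complex and its regulators fell, with a median of -1.01. Smc1a fell by 1.49 (adjusted p = 2.08e-05) and Stag2 by 1.41 (adjusted p = 2.87e-05). Esco1, an acetyltransferase that secures cohesin, did not pass at -0.38 and rose by 0.50 after median-ratio rescaling (adjusted p = 0.0369).

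Subunits of the anaphase-promoting complex, the ligase that Cdc20 activates, fell in 12 of 14 cases, with a median of -1.36. Over all genes tested 59.5% fell. Anapc5 averaged 52.04 ± 6.73 FPKM in KO libraries and 189 ± 9.22 FPKM in FL libraries (SD, n = 3 and 5), and Cdc16 averaged 13.7 ± 1.86 and 39.4 ± 1.97 FPKM. They fell by 1.84 (limma, adjusted p = 6.11e-06) and 1.47 (adjusted p = 1.62e-05), while Anapc10 (-0.46) and Anapc15 (-0.84) did not pass. After median-ratio rescaling 6 of the 14 still fell, where 17.1% of all genes fell. The median spread between libraries was 0.26 in KO and 0.15 in FL (SD of log2(FPKM + 1)), smaller than in the 34 mitotic genes. Of 24 S phase genes 22 fell, with a median of -1.41, and 10 fell after rescaling, against 59.5% and 17.1% of all genes. Mcm7, a subunit of the replicative helicase, fell by 1.99 (adjusted p = 3.99e-06) and Chaf1b, a histone chaperone, by 2.17 (adjusted p = 9.7e-06), while Ccne1 (-0.12) and E2f1 (-0.06) did not pass; E2f1 rose by 0.73 after rescaling (adjusted p = 0.0465).

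**Figure D5:**
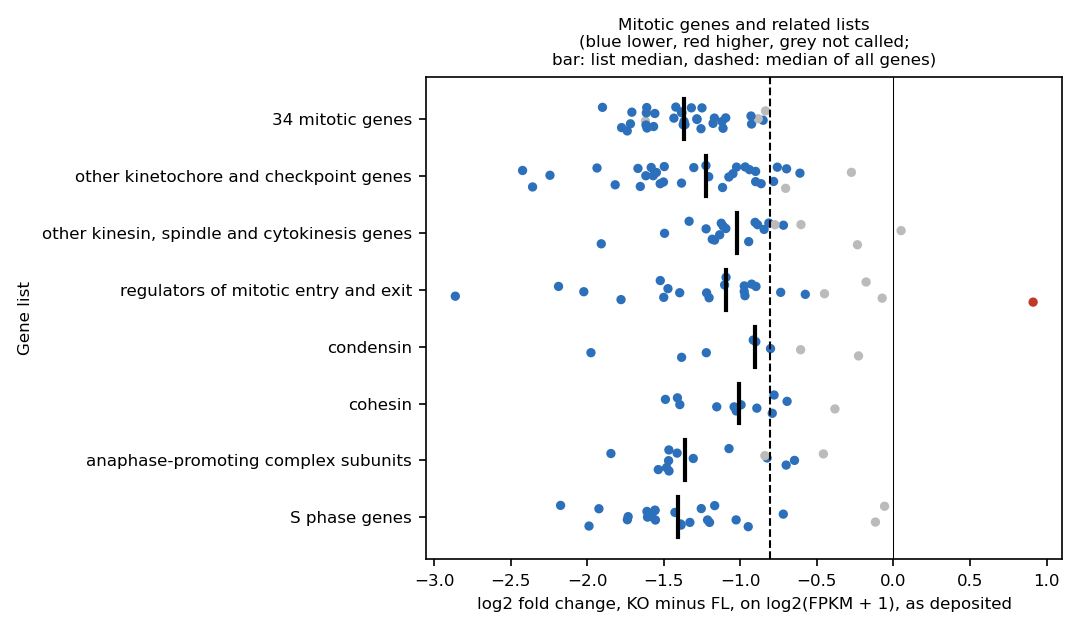
Log2 fold change (KO minus FL, on the log2(FPKM + 1) scale, as deposited) of each gene in the 34 mitotic genes and 7 related lists; each point is 1 gene, blue where it fell, red where it rose and grey where it did not pass, the short bar is the list median and the dashed line the median of all genes tested, -0.81. List medians run from -1.41 for S phase genes to -0.91 for condensin, and the 1 red point is Cdc25b; after median-ratio rescaling Cdc25b, Pttg1, Esco1 and E2f1 rose.

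Some values may hold fragments of neighbours or copies, since no source used here gives the strand setting of the counting. On the opposite strand, exons of Kif20a overlap those of Cdc23 over 29.3% of their length, those of Ube2c overlap Tnnc2 over 22.8%, those of Ccna2 overlap Exosc9 over 12.5% and those of Prc1 overlap Rccd1 over 11.1%. Processed copies of Ccnb1 stood at no more than 0.83 FPKM in any library and that of Plk1 at no more than 0.70 FPKM. The copy of Bub3, Gm9540, reached 2.80 FPKM in KO replicate 1, against 37.7 FPKM for Bub3 there. The copy of Kif11, Gm15697, had 0.78, 0.53 and 0.71 FPKM in KO replicates 1 to 3, where Kif11 had 8.42, 1.39 and 3.99 FPKM. In FL libraries that copy had 0.12 to 0.42 FPKM. Ndc80 has a near-copy, Gm1976, 90.9% identical over 944 bases, whose level is not given here. Kif2c has a near-copy annotated as a long non-coding RNA, Gm4961. It is 91.7% identical over 1443 bases, where the Kif2c transcript has 2842, and its level is not given here.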

How the data were processed

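RNA had been sequenced from 3 KO and 5 FL libraries of sorted bone marrow cells. Per the labels' protocols, mRNA was amplified by Geo-seq, a protocol for few cells, and libraries were made with a transposase kit. The authors deposited 1 table of FPKM values per gene. Per the submitters' processing notes, the tools were Cufflinks 2.1.1, Bowtie 0.12.9, DESeq2 and HTSeq and the build was mm10, with no roles. No source used here gives the annotation release or strand setting. The members and gene lists were chosen with earlier results of these data known. Groups and replicate numbers came from titles and genotype labels.

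KO was compared with FL by limma 3.58.1 (trend, robust) in R 4.3.3 on log2(FPKM + 1), a scale that understates changes of low genes, for 15121 genes with at least 1 FPKM in at least 3 libraries. P-values were Benjamini-Hochberg adjusted over these genes, with a threshold of 0.05. The fit was tested on simulated data with independent errors between genes and few changed genes. That setting does not cover libraries that shift many genes together, as these do. Rescaling used median ratios, quantiles, or totals without 37 mitochondrial genes and their 15 nuclear copies (BLAST+ 2.17.0). Depth was not stated and was estimated from the steps between low values, as a depth chosen to give whole fragments. At that depth 79.0% to 91.9% of values lay within 0.15 of a whole fragment. Chance gives 30.0% for a depth that was not fitted, so the contrast is no test of the estimate. Coordinates, overlaps and copies came from GENCODE M21. Promoter windows were RefSeq's.

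All 34 members were reported. From each related list the 2 genes with the smallest p, those called higher and, where they numbered 5 or fewer, those not called were named. The alternatives were the scalings, a pseudocount of 0.1, 2 other filters (no minimum, or 5 FPKM), a fit without the robust step, leaving out each library, and a replicate block.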

Additional observations from a re-analysis of the deposited data

Results flagged for a closer look

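In 3 of the 35 groups of FL libraries searched (the 34 mitotic genes and their summed FPKM), 1 library stood far from the other 4. The criterion was Dixon's, with a gap of more than 0.71 of the whole range. Chance gives about 1 in 20 groups where the groups are independent. These were not, since FL replicate 4 was the highest FL library for 33 of the 34 genes, so the 2 rates cannot be compared. FL replicate 4 was the high library in all 3. It had 32.92 FPKM for Bub1b, where KO replicates 1 to 3 had 12.6, 3.38 and 3.60 FPKM and the next FL library 15.5 FPKM. It had 12.74 FPKM for Kif2c, where KO replicates had 3.27, 1.43 and 1.61 FPKM and the next FL library 7.86 FPKM, and 42.5 FPKM for Kif23, where KO replicates had 12.1, 8.64 and 9.75 FPKM and the next FL library 30.5 FPKM. Without FL replicate 4 all 3 genes still fell.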

How the results depend on the processing

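Under median-ratio rescaling, quantile normalization and scaling to the non-mitochondrial total, in this order, 3, 5 and 6 of the 34 mitotic genes fell, against 31 as deposited, with medians of -0.56, -0.65 and -0.70. In the same order 22, 27 and 31 of the 110 related genes fell and 3, 2 and 2 rose, and over all genes 2583, 3079 and 3409 fell and 2826, 2530 and 2311 rose. Pttg1 turned to a rise of 0.77, 0.73 and 0.61, and, under median-ratio rescaling alone, so did Esco1 (0.50) and E2f1 (0.73); the cause was not tested. The number of risers over all genes was 3561 with no filter, where more genes are tested, and 619 from 5 FPKM up, where fewer are.

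Leaving out 1 library gave 23 to 33 falling mitotic genes, against 8379 to 8792 falling genes in all (56.6% to 60.3%). The fewest fell without KO replicate 2 (67.6%, near the 60.3% of all genes in that fit). All 34 fold changes stayed negative, and 23 of the 34 genes fell in every one of these 8 fits. Matching counts over all genes were not made, so these last counts cannot be set against a background. Risers numbered 847 to 1351 over all genes (847 without KO replicate 2, 860.0 without KO replicate 3) and 0 to 1 among related genes (0 without KO replicate 3, with Cdc25b then not called). Without FL replicate 4 and KO replicate 2 together, a choice made after the values were seen, 22 mitotic genes fell (64.7%, near the 61.1% of all genes), with a median of -0.91, and 863 genes rose in all. Deviations of same-numbered libraries correlated at -0.05, 0.06 and -0.07. These values gave no sign that the replicate numbers pair the libraries, and so few libraries cannot exclude it. A replicate block over replicates 1 to 3 gave 21 falling mitotic genes and 7641 falling and 1241 rising genes in all, against 24, 7919 and 1250 without the block. Estimated depth leaves the lowest values, such as Ttk, Plk1 and Bub1 in KO replicate 2 (10, 26 and 28 fragments), least precise.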
